A study of Mus musculus with 36 samples.

Results

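Corexit 9527 was compared directly with oil in mouse lung, to show where the responses to the dispersant and to the crude oil it is meant to disperse differ. The comparison used 12 of the 36 mice of the study, chosen by their labels: 6 mice given Corexit 9527 (female and male mice 10 to 12) and 6 mice given MC252 oil (female and male mice 4 to 6). Levels in the 6 saline mice (mice 1 to 3 of each sex) are given as the background. All were wild-type C57BL/6 mice, 8 weeks old at the start, and received 50 µL of a fraction diluted to a concentration of 0.1 on days 0, 7 and 13. Euthanasia followed on day 14, and RNA of the whole left lung was sequenced with a stranded kit for mRNA. The labels call the fractions water-accommodated, while the study's methods describe saline-accommodated fractions in Hank's balanced salt solution, given by oropharyngeal aspiration. For oil, the saline phase was drawn off after mixing, whereas the Corexit 9527 mixture did not separate and was used as it was, so the fractions differ in preparation as well as in content.

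Corexit 9527 is a commercial oil dispersant that contains 2-butoxyethanol, propylene glycol and organic sulfonic acid salts, of which the last are surfactants. MC252 oil is the crude oil of the Macondo well, a mixture of alkanes and aromatic compounds. In the lung, injured airway and alveolar epithelium is replaced by cells that re-enter the cell cycle, and epithelium under stress can switch on squamous genes such as the small proline-rich proteins. Macrophages that take part in repair express chitinase-like proteins and matrix-degrading enzymes, and neutrophils enter the tissue in acute inflammation. Aromatic compounds of oil are known ligands of the aryl hydrocarbon receptor, which drives detoxifying enzymes such as Cyp1a1.

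The 12 libraries held 17654791 to 30011557 counts on genes. Genes of the mitochondrial genome took 38.4% of the counts in female Corexit 9527 mouse 11 and 22.6% in female oil mouse 6, against 6.05% to 9.50% in the other 10 libraries. Among the saline mice used as background, female mouse 3 stood apart in the same way, with 45.1%. Several results, but not all, are therefore also given without female Corexit 9527 mouse 11 and female oil mouse 6, the libraries of high mitochondrial share in the comparison. The sexes were deposited as separate tables, and the labels name no run or batch, so any batch that follows sex cannot be told apart from it. Levels are CPM, the counts of a gene scaled to 1000000 counts of the normalized library. Fold changes are log2 values of Corexit 9527 over oil with their standard error (SE), and each p value measures the spread between mice.

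Sprr1a was the only gene that differed between Corexit 9527 and oil past an adjusted p of 0.05 in the edgeR test over both sexes, and it rose. This 1 gene was 0.00661% of the 15120 genes tested, and 0 genes (0%) were lower past that threshold. At an unadjusted p under 0.05, 319 genes (2.11%) were higher and 147 (0.972%) were lower with Corexit 9527. DESeq2 gave an adjusted p to 14932 genes, of which 84 (0.563%) were higher and 3 (0.0201%) lower under the same threshold, and limma voom with sample weights found 47 in both directions. Without the libraries of high mitochondrial share, edgeR found 3 genes, Sprr1a, Psca and Mal, all higher with Corexit 9527. Of all genes tested, 49% had a log2 fold change above 0, and the median was −0.01. In 82 genes (0.542%) every Corexit 9527 mouse lay above every oil mouse of its sex, and in 43 (0.284%) every one lay below.

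Sprr1a (ENSMUSG00000050359, chr3:92483952-92485895 in GRCm38, minus strand) encodes a small proline-rich protein that is cross-linked into the envelope of squamous epithelial cells. Its levels were 23.1, 10.5 and 14.7 CPM in female Corexit 9527 mice 10, 11 and 12 and 1.18, 1.66 and 1.17 CPM in female oil mice 4, 5 and 6. In male mice they were 29.3, 40.4 and 15.5 CPM with Corexit 9527 and 2.03, 0.595 and 1.06 CPM with oil. The groups did not overlap in either sex, and oil mice stood near saline mice, which had 1.94 ± 0.568 CPM (SD, n = 3) in females and 1.24 ± 0.0775 CPM (SD, n = 3) in males. The log2 fold change was 4.06 (SE 0.39, adjusted p = 0.00484, edgeR). It ranged from 3.86 to 4.22 as each mouse was left out in turn and passed the threshold each time. Because the tissue was sequenced in bulk, more cells that express a gene and more RNA per cell cannot be told apart, here and below.

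The 250 bases before the RefSeq start of Sprr1a (GRCm38.p6, chr3:92485882-92486131, minus strand) are shown because this is the 1 gene that passed the test. The capitals mark the 7 letters TGACTCA or, on the other strand, TGAGTCA, the AP-1 motif, searched on both strands.
Sprr1a: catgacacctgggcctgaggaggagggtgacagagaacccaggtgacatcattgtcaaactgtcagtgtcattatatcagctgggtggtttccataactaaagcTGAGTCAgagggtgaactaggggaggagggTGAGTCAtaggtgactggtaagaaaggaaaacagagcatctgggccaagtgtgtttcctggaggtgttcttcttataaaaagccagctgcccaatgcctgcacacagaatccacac
The window held 2 matches, and 4.46% of the 32851 RefSeq windows of this length held at least 1. A match describes the letters and does not show a bound site.

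Of 16 tested genes of airway epithelial injury and squamous change, 15 had higher levels with Corexit 9527. Besides Sprr1a, which passed the test, 8 more had an unadjusted p under 0.05, against a background of 2.11% of all genes in this direction, and the list median was 1.00 against −0.01 over all genes. The list names 31 genes, and the others had too few counts or were not listed. A member near 0 CPM in oil mice could be tested only through counts in Corexit 9527 mice, which tilts these tallies upward. Psca, a surface protein of epithelium, was at 1.27, 0 and 1.56 CPM in female and 2.73, 3.09 and 1.44 CPM in male Corexit 9527 mice. Oil mice had at most 0.368 CPM. Its log2 fold change was 3.48 (SE 0.84, adjusted p = 0.559), and the fold of a gene this low is imprecise. Only female mouse 11, the library with 38.4% mitochondrial counts, fell among the oil mice, and without both libraries of high mitochondrial share the value was 4.33 (adjusted p = 0.0210). In that mouse the list as a whole also stood below the oil mice, with a median difference of −0.67 against 0.60 to 1.51 in the other 5 Corexit 9527 mice.

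Ereg, which encodes the EGF receptor ligand epiregulin, had the next largest difference among genes named over both sexes, with no overlap between the groups. It was at 2.94, 8.36 and 1.84 CPM in female Corexit 9527 mice against 0.420, 0.595 and 0.736 CPM in female oil mice, and at 3.40, 8.06 and 0.883 CPM against 0.181, 0.546 and 0.530 CPM in males. The female values of 8.36 and 0.736 CPM came from the libraries of high mitochondrial share. The log2 fold change was 3.08 (SE 0.57, adjusted p = 0.287), which missed the threshold. Saline mice averaged 0.259 CPM in males and 2.62 ± 4.17 CPM (SD, n = 3) in females, where 1 mouse was high.

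Tnc, which encodes tenascin C, a matrix protein laid down in wound repair, was at 133, 93.3 and 84.1 CPM in female Corexit 9527 mice and 26.9, 20.7 and 32.6 CPM in female oil mice. In males it was at 110, 390 and 76.8 CPM with Corexit 9527 and 27.9, 31.5 and 35.8 CPM with oil. Each Corexit 9527 mouse exceeded every oil mouse, and oil levels lay near those of saline, 24.3 CPM in females and 34.7 CPM in males. The log2 fold change was 2.28 (SE 0.37, adjusted p = 0.287). Male mouse 11 stood far above the rest, and with it left out Tnc passed the threshold as a second gene, at 1.78.

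Mmp12, the elastase of macrophages, was at 85.6, 75.9 and 39.8 CPM in female Corexit 9527 mice against 8.10, 6.25 and 7.48 CPM in female oil mice. In males the levels were 22.6, 53.9 and 23.9 CPM against 17.7, 13.1 and 8.51 CPM. The groups did not overlap, but lay closer to each other in males, and the log2 fold change was 2.27 over both sexes (SE 0.42, adjusted p = 0.287). Mal, a membrane raft protein of epithelium and myelin, differed less but with little spread, at 52.3 to 57.0 CPM in the 6 Corexit 9527 mice and 25.8 to 44.9 CPM in the 6 oil mice. Its log2 fold change was 0.70 (SE 0.13, adjusted p = 0.287).

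**Figure D1:**
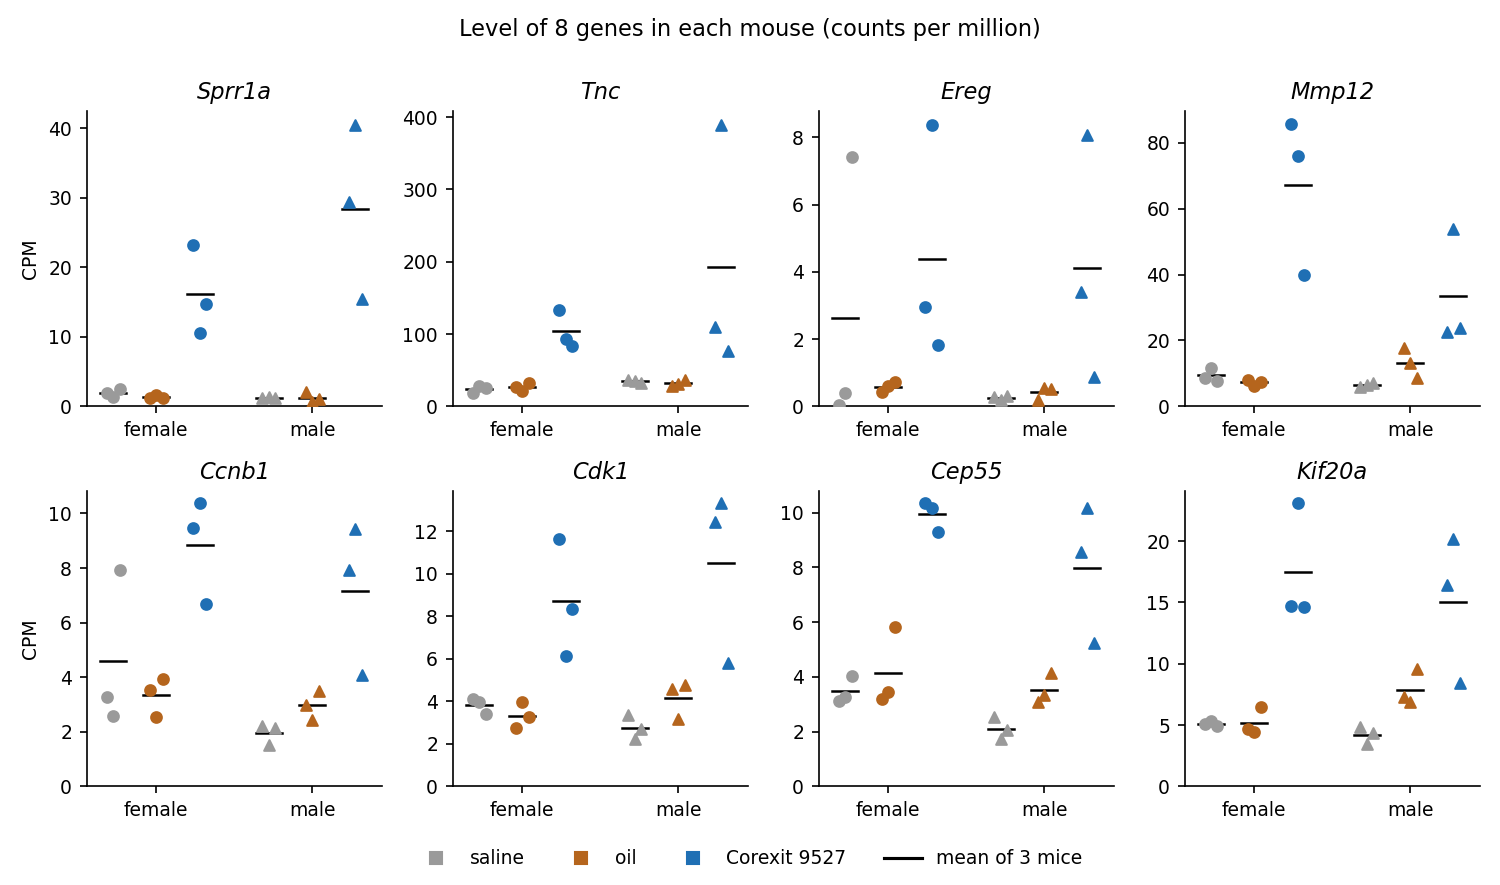
Level in CPM (vertical axis, linear from 0) of 8 genes in each mouse, with female mice as circles and male mice as triangles. Gray stands for saline, brown for oil and blue for Corexit 9527, and each line is the mean of 3 mice. Corexit 9527 mice lie above the oil mice of their sex in 7 of the 8 genes, and in Kif20a male mouse 12 falls within the male oil range.

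Genes of cell division were higher with Corexit 9527 than with oil as a group, although none passed the edgeR threshold alone. Of 193 tested members of 7 lists, which cover mitosis, cyclins, replication and recombination, 181 were higher and 12 lower, with a median log2 fold change of 0.67. At an unadjusted p under 0.05, 88 (45.6%) were higher and 0 lower, against 2.11% and 0.972% of all genes. The lowest adjusted p was 0.287. DESeq2 put 35 of the members above its adjusted threshold and 0 below, against 0.563% and 0.0201% of all genes. In 21 members (10.9%, against 0.542% of all genes) every Corexit 9527 mouse exceeded every oil mouse of its sex. Without the libraries of high mitochondrial share the median was again 0.67, and 122 members were higher and 1 lower at an unadjusted p under 0.05, when 5.13% and 3.68% of the 15237 genes of that fit were. The division lists were chosen with earlier results of these data known. The study had already reported cell cycle, replication and recombination pathways as upregulated by this dispersant against saline in the same mice. The direction and shares of the division lists, here and below, are therefore no independent evidence.

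The division genes did not differ evenly over the mice. Against the mean of the oil mice of the same sex, the median member stood 0.92, 0.71 and 0.78 higher (log2 CPM) in female Corexit 9527 mice 10, 11 and 12. In male mice 10 and 11 it stood 0.48 and 0.87 higher, but in male mouse 12 it was at 0.06, within the male oil range of −0.16 to 0.16. Female oil mice ran from −0.09 to 0.10. Female saline mice lay at −0.07 to 0.11, near the oil mice of their sex, and male saline mice at −0.50 to −0.21, below them.

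**Figure D2:**
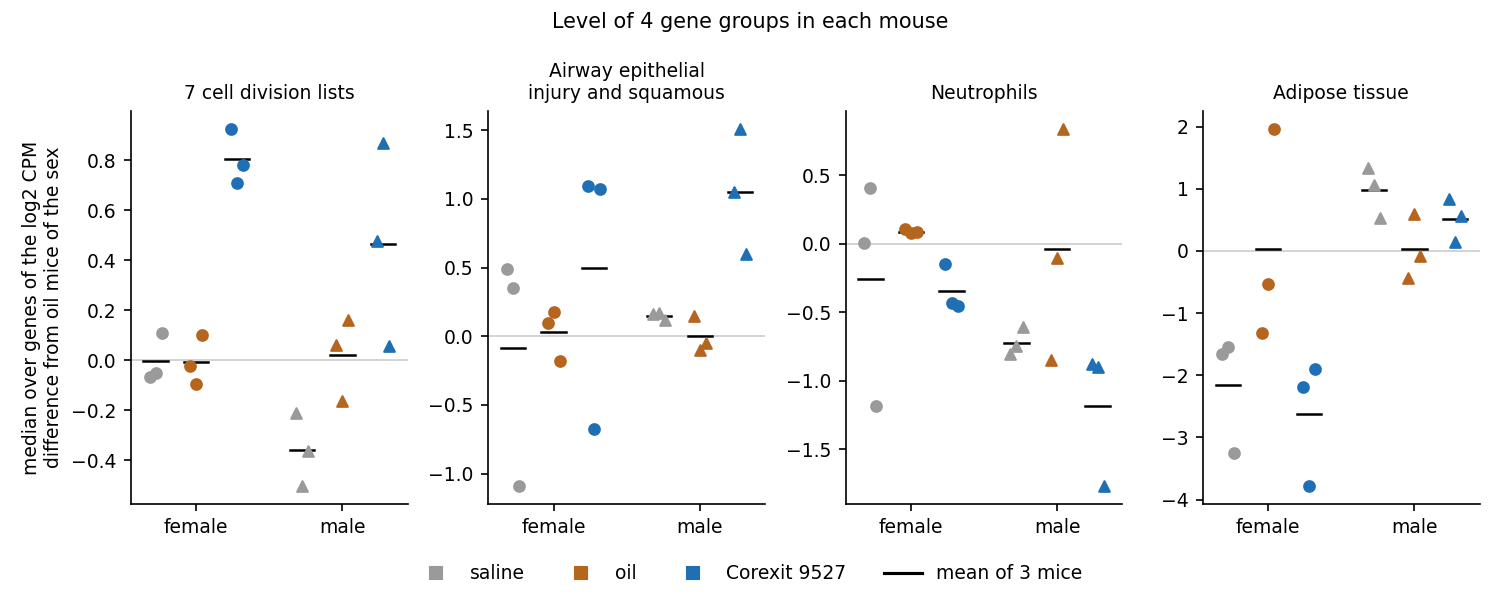
Level of 4 gene groups in each mouse, as the median over the group's genes of the log2 CPM difference from the mean of the oil mice of the same sex (vertical axis; each panel has its own scale). Circles are female and triangles male mice, in gray (saline), brown (oil) and blue (Corexit 9527), with the mean of 3 mice as a line. Division genes are high in 5 of 6 Corexit 9527 mice, neutrophil genes run from −0.85 to 0.84 among male oil mice, and adipose genes are highest in female oil mouse 6, at 1.96, while male saline mice reach 1.34.

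Among the 7 lists the medians were highest for genes that act at mitosis. Counts of higher genes at an unadjusted p under 0.05 in each of these lists stand against 2.11% of all genes. All 13 mitotic kinesins, motor proteins of the spindle and midzone, had higher levels, with a median of 0.97, and 9 had an unadjusted p under 0.05. Kif20a, the midzone kinesin of cytokinesis, was at 14.7, 23.1 and 14.6 CPM in female Corexit 9527 mice and 4.66, 4.42 and 6.50 CPM in female oil mice. The male levels were 16.4, 20.2 and 8.42 CPM against 7.28, 6.85 and 9.56 CPM, so that male mouse 12 overlapped the oil mice. Its log2 fold change was 1.33 (SE 0.27, adjusted p = 0.404). Kif4, a chromosome-bound kinesin, and Kif15, a spindle kinesin, had log2 fold changes of 0.90 and 1.27.

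Mitotic kinases, the anaphase-promoting complex and cytokinesis factors were higher in 29 of 30 genes, 24 of them with an unadjusted p under 0.05, and had a median of 0.93. Cep55, which recruits the abscission machinery to the midbody, was at 10.3, 10.1 and 9.30 CPM in female Corexit 9527 mice and 3.19, 3.44 and 5.83 CPM in female oil mice. In male mice it was at 8.55, 10.2 and 5.25 CPM against 3.07, 3.32 and 4.14 CPM. It did not overlap in either sex and had a log2 fold change of 1.22 (SE 0.22, adjusted p = 0.287). Hmmr, a spindle protein that also binds hyaluronan, and Bub1, a checkpoint kinase, had log2 fold changes of 1.53 and 0.90. All 31 tested genes of the kinetochore and spindle checkpoint were higher (18 with an unadjusted p under 0.05, median 0.92), among them Zwilch, Dlgap5 and Cenpu with log2 fold changes of 1.15, 1.16 and 1.18.

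Among cyclins and their kinases, 24 of 30 were higher and the median was 0.37, with the mitotic members at the top. Ccnb1 (cyclin B1) was at 9.45, 10.4 and 6.69 CPM in female Corexit 9527 mice against 3.53, 2.55 and 3.93 CPM in female oil mice, and at 7.92, 9.43 and 4.09 CPM against 2.98, 2.43 and 3.49 CPM in males. Cdk1, its partner kinase, was at 11.6, 6.13 and 8.37 CPM against 2.77, 3.96 and 3.25 CPM in females, and at 12.4, 13.3 and 5.81 CPM against 4.56, 3.17 and 4.77 CPM in males. Neither gene overlapped between the groups of a sex. The log2 fold changes were 1.33 (SE 0.24) for Ccnb1, 1.36 (SE 0.25) for Cdk1 and 1.43 for Ccnb2 (cyclin B2), with an adjusted p of 0.287 for the first pair and 0.490 for Ccnb2.

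The 250 bases before the RefSeq starts of Ccnb1 (chr13:100786487-100786736, minus strand) and Cdk1 (chr10:69352913-69353162, minus strand) in GRCm38.p6 are shown because these mitotic partners differed together. Capitals mark the CCAAT box (CCAAT or ATTGG) and the cell cycle genes homology region (TTTGAA or TTCAAA), each searched on both strands.
Ccnb1: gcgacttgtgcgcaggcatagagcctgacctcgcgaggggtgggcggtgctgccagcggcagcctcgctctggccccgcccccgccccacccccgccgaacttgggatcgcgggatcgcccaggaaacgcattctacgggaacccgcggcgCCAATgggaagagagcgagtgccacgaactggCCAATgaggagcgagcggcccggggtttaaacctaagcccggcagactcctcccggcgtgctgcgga
Cdk1: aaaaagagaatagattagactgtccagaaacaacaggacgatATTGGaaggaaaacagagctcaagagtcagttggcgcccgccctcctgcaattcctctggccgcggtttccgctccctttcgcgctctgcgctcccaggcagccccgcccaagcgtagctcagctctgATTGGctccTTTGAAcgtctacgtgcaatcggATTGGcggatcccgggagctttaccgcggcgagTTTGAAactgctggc
The Ccnb1 window held 2 CCAAT boxes and no TTTGAA, while that of Cdk1 held 3 and 2. Among 93 windows of 84 genes from the kinesin, mitotic kinase, kinetochore and cyclin lists, 68.8% held CCAAT and 23.7% held both motifs. Of all 32851 windows, 33.8% held CCAAT and 5.55% both. These shares describe the letters of the windows and were not tested.

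Lists of replication and repair genes had lower medians than the 3 mitotic lists. All 24 genes of replication licensing, which load the MCM helicase onto origins, were higher, with a median of 0.55 and 9 with an unadjusted p under 0.05. Mcm7, a helicase subunit, was at 46.5 to 54.8 CPM in female Corexit 9527 mice against 26.2 to 28.2 CPM in female oil mice. Male levels ran from 29.4 to 60.2 CPM against 27.5 to 33.5 CPM, and the log2 fold change was 0.70 (SE 0.18, adjusted p = 0.559). Cdc45 and Mcm6 of the same helicase had log2 fold changes of 1.03 and 0.57. All 30 polymerase and fork genes were higher (10 with an unadjusted p under 0.05, median 0.43). Rrm2 and Rrm1, the subunits of ribonucleotide reductase, had log2 fold changes of 1.21 and 0.64, and the DNA ligase Lig1 had 0.76. For homologous recombination and the Fanconi pathway, 30 of 35 genes were higher, 11 with an unadjusted p under 0.05, and the median was 0.40. Log2 fold changes were 1.13 for Fanci and 1.34 for the exonuclease Exo1.

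The 11 genes that the study took to real-time PCR were chosen on these samples, so that their direction is no independent evidence. All 11 were higher with Corexit 9527 than with oil, with a median of 1.16, and 8 had an unadjusted p under 0.05, against 2.11% of all genes. Log2 fold changes were 1.33 for Uhrf1, 1.38 for Clspn, 1.25 for Chek1, 1.33 for Pclaf (listed as 2810417H13Rik), 0.95 for Chaf1b, 1.16 for Dtl, 1.05 for Ticrr and 1.36 for Rad51ap1. The remaining values were 0.69 for Bard1, 0.63 for Fen1 and 0.07 for Chek2. DESeq2 put 6 of the 11 past its threshold, against 0.563% of all genes, and edgeR 0 (lowest adjusted p = 0.490). Clspn, which activates the checkpoint kinase encoded by Chek1, was at 12.3, 19.7 and 11.7 CPM in female Corexit 9527 mice against 3.44 to 4.45 CPM in female oil mice. In male mice it was at 13.2, 14.9 and 5.63 CPM against 3.32 to 7.91 CPM, with mouse 12 again among the oil mice. Fen1 was near 1 CPM in both libraries of high mitochondrial share, at 1.12 CPM in Corexit 9527 mouse 11 and 1.53 CPM in oil mouse 6.

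Among targets of p53, 15 of 27 were higher, with a median of 0.12 (0.03 without female oil mouse 4) and 0 with an unadjusted p under 0.05. In males 20 of 27 were higher, 4 of them at an unadjusted p under 0.05 against 4.06% of all genes, and in females 13 of 26, with 0. Without the libraries of high mitochondrial share 3 were higher and 0 lower at that level, against 5.13% and 3.68% of all genes. Sesn1, a stress-induced regulator of growth signaling and the one with the smallest p, had a log2 fold change of −0.22. Of 18 histone genes that are made in S phase, 1 was higher, and the median was −0.26, which ran from −0.40 to −0.09 as each mouse was left out. In males 3 of 16 were higher (median −0.30), and in females 8 of 15 (median 0.00). At an unadjusted p under 0.05, 1 of the 18 was lower, against 0.972% of all genes. Without the libraries of high mitochondrial share 4 of 17 were lower and 0 higher at that level, against 3.68% and 5.13%. Most transcripts of these histone genes lack the poly(A) tail by which mRNA kits select, and 18 of the 53 listed had counts enough to be tested. Hist1h2be had the smallest p, with a log2 fold change of −0.63.

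**Figure D3:**
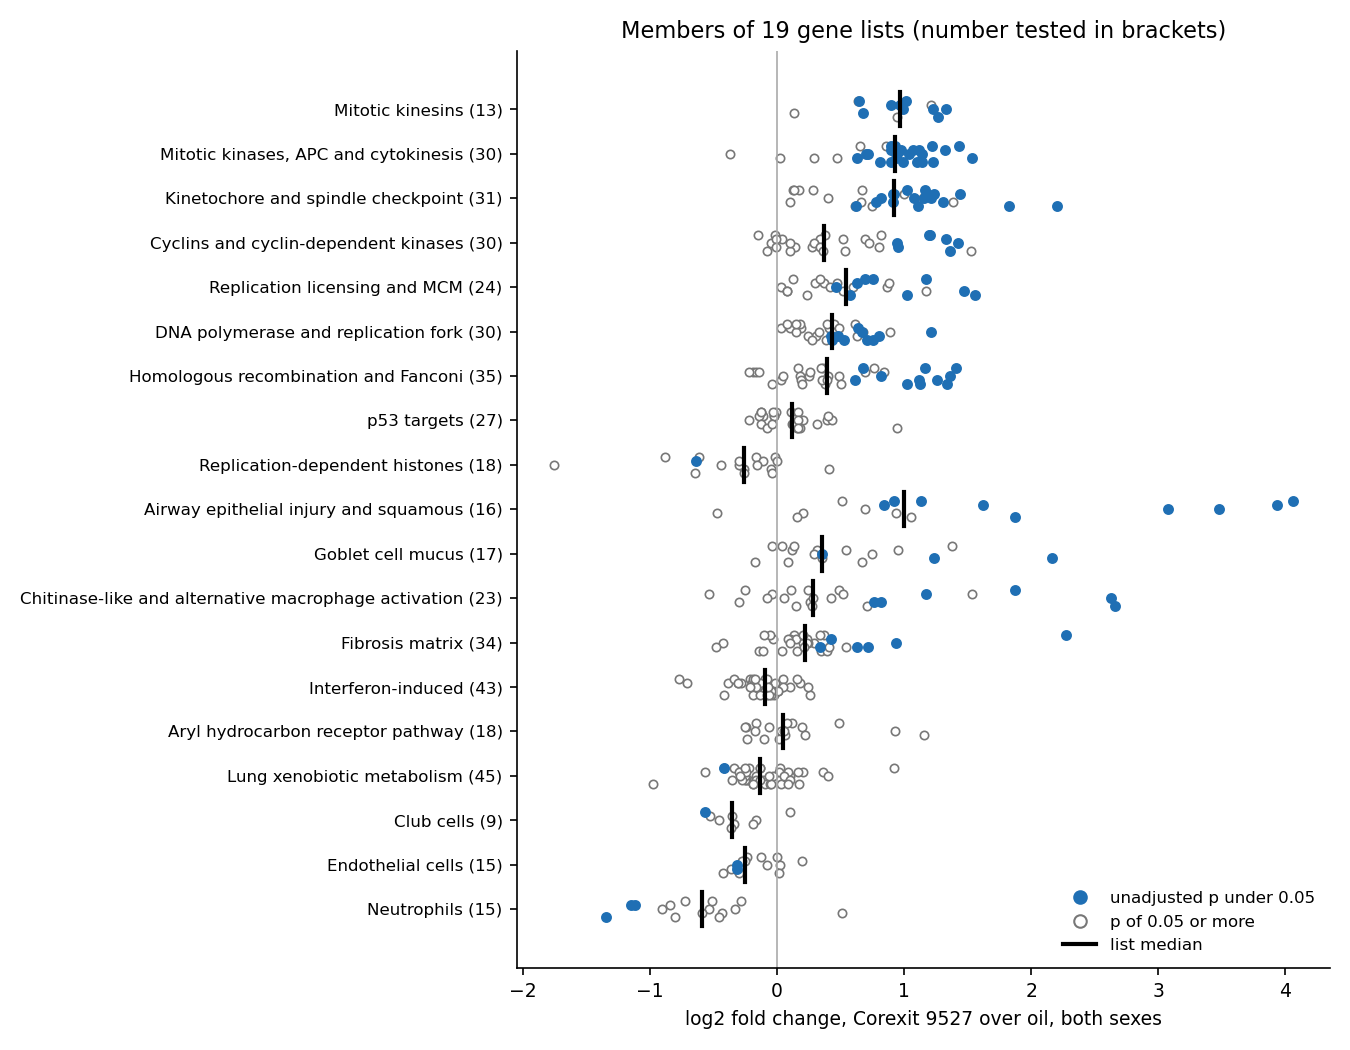
Log2 fold change (horizontal axis, Corexit 9527 over oil, both sexes) of every tested member of 19 gene lists, with the number tested in brackets. Filled points had an unadjusted p under 0.05, open points did not, and the black bar is the list median. The mitotic lists have medians of 0.92 to 0.97, the airway injury list 1.00, p53 targets 0.12 and neutrophil markers −0.59.

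Of 23 tested genes of alternative macrophage activation, 18 were higher with Corexit 9527 over both sexes, 6 genes were higher and 0 lower at an unadjusted p under 0.05, against 2.11% and 0.972% of all genes, and the median log2 fold change was 0.29 (0.27 to 0.49 as each mouse was left out, the highest without male oil mouse 4). Within sexes the median was 0.76 in females and 0.06 in males, a difference that was not tested for the list. Markers of alveolar macrophages were higher in 11 of 14 over both sexes, 1 of them at an unadjusted p under 0.05, against 2.11% of all genes. Their median was 0.47 in females and −0.04 in males, and their part in the result was not tested.

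Chil3, a chitinase-like protein whose reads can be shared with its near-identical neighbor Chil4, was at 1842, 985 and 870 CPM in female Corexit 9527 mice against 346, 399 and 360 CPM in female oil mice. Male levels were 428, 1049 and 688 CPM against 487, 497 and 439 CPM, with mouse 10 below every oil mouse. Its log2 fold change was 1.17 (SE 0.30, adjusted p = 0.559). Retnla, a secreted protein of macrophages and of airway epithelium, was at 1957, 853 and 615 CPM against 108, 135 and 164 CPM in females. Levels of 150, 817 and 259 CPM in male Corexit 9527 mice overlapped those of 602, 97.8 and 65.3 CPM in male oil mice. Il33, an alarmin of epithelial cells, was at 235, 324 and 183 CPM against 113, 102 and 233 CPM in females and at 133, 278 and 138 CPM against 122, 101 and 90.8 CPM in males (log2 fold change 0.77, SE 0.26, adjusted p = 1.00). The high female oil value came from mouse 6, the library with 22.6% mitochondrial counts.

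Of 34 genes of the fibrotic matrix, 27 were higher, 6 of them at an unadjusted p under 0.05 against 2.11% of all genes, with a median of 0.22. Without the libraries of high mitochondrial share 12 were higher at that level, against 5.13% of all genes, and the median was 0.25. Beside Tnc the list includes Spp1 (osteopontin), at 49.4 to 71.3 CPM in male Corexit 9527 mice against 23.1 to 34.7 CPM in male oil mice, and at 63.5 to 167 CPM against 51.3 to 72.8 CPM in females, where mouse 10 overlapped the oil mice. This gave a log2 fold change of 0.94 (SE 0.23, adjusted p = 0.559). Col3a1, a fibrillar collagen, was above every oil mouse of the sex in all 6 Corexit 9527 mice, with a log2 fold change of 0.63 (SE 0.17, adjusted p = 0.630). Metalloproteinases and their inhibitors as a list had a median of 0.13, which turned to −0.12 without female Corexit 9527 mouse 10, with Mmp12 and Timp1 (log2 fold change 1.78, SE 0.49, adjusted p = 0.630) at one end and Mmp9 (−1.15) at the other. Timp1, an inhibitor of these enzymes, reached 108 CPM in female mouse 10 and 101 CPM in male mouse 11, against 7.77 to 25.4 CPM in oil mice.

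Goblet cell genes, which make and secrete mucus, were higher in all 17 tested in females (median 0.69) and in 9 of 17 in males (median 0.01). Against the female oil mean the median member stood 0.44 to 0.90 higher in female Corexit 9527 mice, but also 1.02 and 1.07 higher in female saline mice 2 and 3, so that Corexit 9527 mice lay within the saline range. Over both sexes the median was 0.35 (0.54 without male oil mouse 4), and 3 were higher at an unadjusted p under 0.05, against 2.11% of all genes. Slc26a4, the anion exchanger pendrin, was at 77.9, 22.6 and 13.5 CPM in female Corexit 9527 mice against 2.51 to 3.74 CPM in female oil mice, and at 13.6, 53.5 and 16.1 CPM against 6.79 to 35.9 CPM in males. Agr2, a chaperone of mucin folding, and Muc1, a membrane mucin, had log2 fold changes of 1.24 and 0.36 (adjusted p = 1.00 for the list's lowest).

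Neutrophil genes were lower with Corexit 9527 than with oil in male mice. Of 15 markers, 14 were lower over both sexes (median −0.59), 3 with an unadjusted p under 0.05 against 0.972% of all genes in this direction. Without male oil mouse 6 the median was −0.34. In males the median was −1.47 with 9 of 15 lower at an unadjusted p under 0.05, against 3.82% of all genes in males, and in females it was 0.00 with 0. Markers of monocytes and interstitial macrophages were also lower in males, where 1 of 17 was higher, the median was −0.27 and 6 were lower at an unadjusted p under 0.05, while the female median was 0.00. Their summed level was 2645 to 3377 CPM in male Corexit 9527 mice and 2838 to 3562 CPM in male oil mice, and their part in the result was not tested. Mmp9, the gelatinase of neutrophil granules, was at 62.1, 49.1 and 109 CPM in male oil mice and 25.9, 28.6 and 10.5 CPM in male Corexit 9527 mice. Male saline mice had 31.1 ± 1.99 CPM (SD, n = 3), so that oil mice stood above saline and Corexit 9527 mice below it. S100a9, a subunit of calprotectin, was at 41.7, 77.5 and 136 CPM in male oil mice and 41.3, 35.4 and 11.9 CPM in male Corexit 9527 mice. Ngp, a granule protein, was at 7.46, 2.23 and 8.82 CPM against 1.52, 2.49 and 0.837 CPM.

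The summed level of the 15 neutrophil markers was 499 to 1201 CPM in male oil mice, 260 to 476 CPM in male Corexit 9527 mice and 395 to 446 CPM in male saline mice. The median marker of male oil mouse 4 stood −0.85 from the male oil mean, near male Corexit 9527 mice 10 and 11 (−0.88 and −0.90) and male saline mice (−0.81 to −0.61). In female mice the summed level was 267 to 313 CPM with oil and 234 to 375 CPM with Corexit 9527. Against the female oil mean, the median marker stood at −0.45 to −0.15 in female Corexit 9527 mice and 0.08 to 0.11 in female oil mice. Female saline mice ran from −1.18 to 0.41. Without both female libraries of high mitochondrial share, the median over both sexes was −1.0, and 8 markers were lower at an unadjusted p under 0.05, against 3.68% of all genes in that fit. Whether the sexes differ for single markers was tested by the interaction, where 0 genes passed the adjusted threshold.

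**Figure D4:**
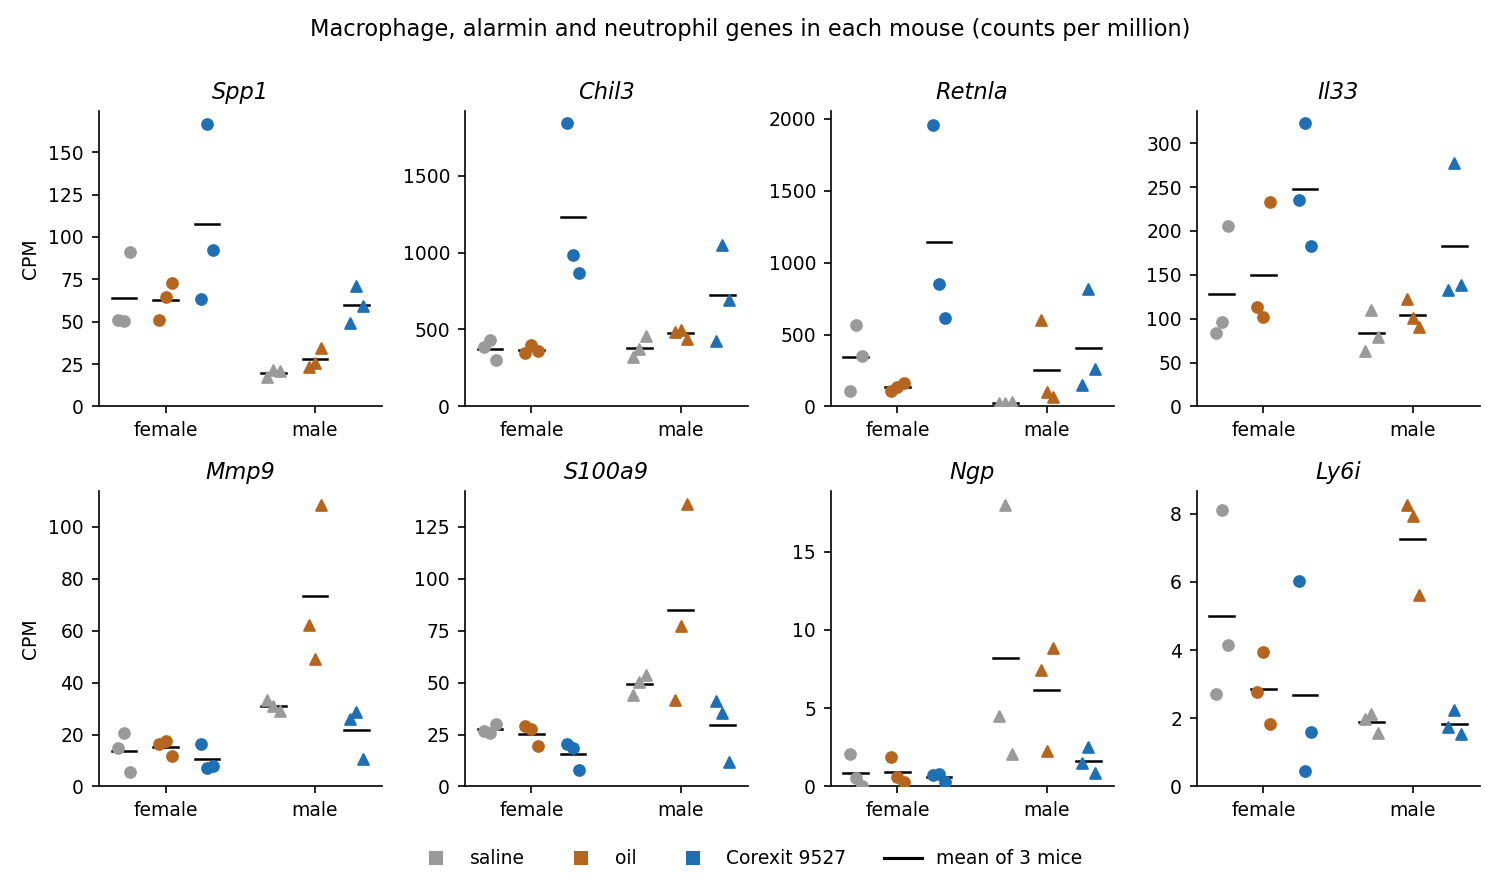
Level in CPM (vertical axis, linear from 0) of 8 immune genes in each mouse, with female mice as circles and male mice as triangles, in gray (saline), brown (oil) and blue (Corexit 9527). Lines are means of 3 mice. Chil3 and Retnla separate the groups in females only, while male oil mice have the highest means of Mmp9, S100a9 and Ly6i.

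Other inflammatory lists had medians near 0 over both sexes, but in most the median was below 0 in males and above it in females. CC chemokines had a median of 0.09 over both sexes, with 3 of 26 higher and 0 lower at an unadjusted p under 0.05 against 2.11% and 0.972% of all genes. The median was −0.18 in males, where 6 of 25 were lower and 1 higher at an unadjusted p under 0.05, and 0.50 in females. Without the libraries of high mitochondrial share the median over both sexes was 0.01. In that fit 2 were higher and 2 lower at that level, against 5.13% and 3.68% of all genes. Cytokines of the IL-1, IL-6, TNF and IL-17 families had a median of 0.09, with 3 of 25 higher and 1 lower at that level over both sexes. The median was −0.09 in males, where 5 of 24 were lower and 2 higher at that level, and 0.19 in females. Complement had a median of −0.04, with 1 of 24 higher and 0 lower over both sexes, and of −0.16 in males, where 5 of 24 were lower and 1 higher, and 0.20 in females. CXC chemokines had −0.07, −0.10 in males and 0.28 in females, and MHC class II −0.01, −0.08 and 0.04. The male background was 3.82% lower and 4.06% higher, and the sexes were not tested against each other for these lists. As each mouse was left out, the median over both sexes ran from −0.15 to 0.20 for CC chemokines. It ran from −0.06 to 0.16 for cytokines and from −0.22 to 0.03 for complement. In female Corexit 9527 mice 10, 11 and 12 the median CC chemokine stood at 0.97, 0.07 and −0.10 from the female oil mean. Cytokines stood at 0.66, 0.02 and 0.04, CXC chemokines at 0.43, −0.01 and −0.45, and complement at 0.38, −0.77 and 0.14. Ccl2, which attracts monocytes, reached 11.0 CPM in female mouse 10 and 23.0 CPM in male mouse 11 but lay at 0.809 to 2.68 CPM in the other 4 Corexit 9527 mice, against 0.675 to 3.03 CPM in oil mice. Interferon-induced genes were lower in 34 of 43 over both sexes, with a median of −0.09 (−0.29 to −0.01 as each mouse was left out) and 0 with an unadjusted p under 0.05. In males 7 of 43 were higher and 8 were lower at that level, against 3.82% of all genes, and in females 22 of 43 were higher and 0 lower at that level (median 0.01). Secreted host defense and acute phase genes had a median of −0.18, 3 of 26 lower at an unadjusted p under 0.05 over both sexes, against 0.972% of all genes. The median ran from −0.36 without female Corexit 9527 mouse 10 to −0.07 without female Corexit 9527 mouse 11. In males 7 of 25 were lower and 1 higher at that level, against 3.82% and 4.06% of all genes, and in females 0 of 25 lower and 1 higher. Clu (clusterin), a secreted chaperone, was instead above every oil mouse of the sex in all 6 Corexit 9527 mice, with a log2 fold change of 0.43 (SE 0.13, adjusted p = 0.766).

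Genes of chemical detoxification had list medians near 0 over both sexes. The 18 tested genes of the aryl hydrocarbon receptor pathway had a median of 0.05, with 0 at an unadjusted p under 0.05 in either direction. Cyp1a1, named after its values were seen, was at 8.14 and 11.2 CPM in male Corexit 9527 mice 10 and 11 but at 237 CPM in mouse 12, against 13.6 to 20.3 CPM in male oil mice. In females it was at 3.01 to 3.38 CPM with Corexit 9527 and 3.82 to 6.21 CPM with oil. Thus 5 of 6 Corexit 9527 mice lay below every oil mouse of their sex, and the log2 fold change of 0.93 turned to −0.69 without male mouse 12. Male saline mice had 18.7 to 25.5 CPM, with a mean of 22.9 CPM above the male oil mean of 16.1 CPM. Female saline mice had 1.22 to 3.88 CPM and overlapped both groups. The 45 genes of xenobiotic metabolism had a median of −0.14, 1 lower at an unadjusted p under 0.05. In females 9 of them were higher (median −0.27, 0 at that level in either direction), and in males 25 (median 0.04). The median over both sexes ran from −0.24 to −0.08 as each mouse was left out. Without the libraries of high mitochondrial share it was −0.09, with 3 higher and 4 lower at that level, against 5.13% and 3.68% of all genes. Of 38 Nrf2 targets, 18 were higher over both sexes, with a median of 0.00 and 2 at an unadjusted p under 0.05. In males 27 were higher, 5 at that level against 4.06% of all genes, and in females 15 of 37, with 1. Without the libraries of high mitochondrial share 8 of the 38 were higher and 0 lower at that level, against 5.13% and 3.68% of all genes. Gclc, an enzyme of glutathione synthesis, had a log2 fold change of 0.62 (SE 0.24, adjusted p = 1.00).

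Genes that were lower with Corexit 9527 in every mouse differed by small amounts. Mustn1, a nuclear protein of muscle and skeleton, was at 27.6, 27.7 and 27.0 CPM in female Corexit 9527 mice against 41.6, 44.9 and 45.9 CPM in female oil mice. In males it was at 25.5, 23.7 and 29.3 CPM against 35.3, 30.7 and 31.0 CPM, and the log2 fold change was −0.50 (SE 0.12, adjusted p = 0.559). The log2 fold change was −0.87 for Apod, a lipid carrier, −0.48 for Tspan7, a membrane tetraspanin, and −0.46 for Bmp6, a growth factor of endothelium. Clec2d, Lace1 and Ndrg2 had log2 fold changes of −0.40, −0.46 and −0.49. The adjusted p of these 7 genes ran from 0.559 to 0.961, and DESeq2 put Mustn1 and Tspan7 past its threshold.

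Scgb1a1, the secretoglobin that marks club cells of the airway, was below every oil mouse of the sex in all 6 Corexit 9527 mice. It was at 8119 to 13221 CPM against 17808 to 23847 CPM in females and at 10966 to 13047 CPM against 13120 to 15768 CPM in males. This amounted to a log2 fold change of −0.57 (SE 0.21, adjusted p = 1.00). Of the 9 club cell markers, 8 were lower, with a median of −0.35, and 1 was lower at an unadjusted p under 0.05, against 0.972% of all genes. The median was −0.48 in females, with 1 of 9 higher, and −0.09 in males, with 4 of 9 higher. Without the libraries of high mitochondrial share the median over both sexes was −0.25, with 1 lower at that level, against 3.68% of all genes. Against the female oil mean, the median marker stood at −0.56, −1.28 and −0.28 in female Corexit 9527 mice 10, 11 and 12. Female saline mouse 3, with 45.1% mitochondrial counts, stood at −1.50. Ciliated cells (−0.19), endothelial cells (−0.25) and alveolar type 1 cells (−0.07) had medians below 0, and alveolar type 2 cells (0.23) a median above it. At an unadjusted p under 0.05, 2 of 15 endothelial markers were lower and 2 of 16 alveolar type 2 markers higher, against 0.972% and 2.11% of all genes. Without the libraries of high mitochondrial share 5 and 6 were, against 3.68% and 5.13%, and 3 of 15 ciliated cell markers were lower. Mesothelial cells, which cover the lung surface, had a median of −0.34, which turned to 0.04 without female oil mouse 6, and 3 of 9 markers were lower and 0 higher at an unadjusted p under 0.05. Without both libraries of high mitochondrial share the median was −0.39, and 4 were lower and 2 higher at that level, against 3.68% and 5.13% of all genes. The part of shifts in cell type in the differences above was not tested.

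Within male mice 0 of 14886 genes passed the adjusted threshold (lowest adjusted p = 0.170, edgeR), while 604 (4.06%) were higher and 568 (3.82%) lower at an unadjusted p under 0.05. DESeq2 found 106 genes in males. Apart from Sprr1a and Mal, the genes with the smallest p were Ly6i, Atp8b1 and Igfbp3. Ly6i, a surface protein of myeloid cells from a family of close copies, was at 1.74, 2.23 and 1.53 CPM against 8.27, 7.94 and 5.61 CPM in oil mice (log2 fold change −1.97, SE 0.27), and male saline mice had 1.89 ± 0.290 CPM (SD, n = 3). Atp8b1, a phospholipid flippase of epithelium, was at 33.2, 35.9 and 34.1 CPM against 21.6, 22.3 and 20.2 CPM. Igfbp3, a binding protein of insulin-like growth factors, was at 52.7, 49.3 and 64.7 CPM against 95.4, 109 and 89.2 CPM, where saline mice had 125 ± 33.7 CPM (SD, n = 3).

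Within female mice 0 of 14838 genes passed (lowest adjusted p = 1.00, edgeR), with 137 (0.923%) higher and 18 (0.121%) lower at an unadjusted p under 0.05. DESeq2 found 27 genes and limma voom with sample weights 52. The genes with the smallest p were Mmp12 (log2 fold change 3.21, SE 0.40), Sprr1a (3.59, SE 0.47), Tnc (1.96, SE 0.33), Retnla (3.08, SE 0.54) and Sprr2a2. Sprr2a2, from a cluster of near-identical genes whose reads may be split, was at 20.9, 6.58 and 1.09 CPM in female Corexit 9527 mice against at most 0.0425 CPM in female oil mice. Males had 1.07 to 8.32 CPM against 0.0935 to 3.43 CPM. The median difference of the 193 division genes was 0.77 in females and 0.49 in males.

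The interaction of sex and treatment passed the adjusted threshold in 0 of 15347 genes (lowest adjusted p = 1.00, edgeR), and 125 (0.814%) had an unadjusted p under 0.05. DESeq2 found 3 genes and limma voom with sample weights 1. Serpina3n, an acute phase protease inhibitor, was at 330 to 458 CPM in female Corexit 9527 mice against 128 to 170 CPM in female oil mice, but at 277 to 433 CPM against 222 to 328 CPM in males. Csf2rb2, a cytokine receptor chain with a close copy in Csf2rb, was higher in each female Corexit 9527 mouse than in any female oil mouse (log2 fold change 0.85, SE 0.30) and lower in each male one (−0.37, SE 0.15). Ube3a, a ubiquitin ligase, was listed at 0 in all 3 female oil mice and at 0.187 to 5.91 CPM in female Corexit 9527 mice, and overlapped in males at 2.98 to 6.60 CPM against 3.03 to 9.22 CPM. The remaining genes, Adipoq and Car3, are made by fat cells.

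Adipoq, the fat cell hormone adiponectin, was at 69.6 CPM in female oil mouse 6 and at 0.904 to 7.36 CPM in the other 11 mice. Car3, a carbonic anhydrase of fat and muscle, was at 911 CPM in that mouse and at 9.72 to 67.7 CPM in the others. The 8 adipose markers summed to 125 to 1541 CPM in female oil mice and 56.9 to 82.6 CPM in female Corexit 9527 mice, and to 32.3 to 65.3 CPM and 57.1 to 64.6 CPM in males. Their median log2 fold change of −1.39 over both sexes became −0.19 without the libraries of high mitochondrial share, of which this mouse is one. Red cell genes were lower in 9 of 10 (median −0.67), 0 of them at an unadjusted p under 0.05, while Tfrc, the transferrin receptor, was higher at that level (log2 fold change 0.47, SE 0.14, adjusted p = 0.828). With both libraries of high mitochondrial share left out, 6 were lower at that level, against 3.68% of all genes. Platelet genes were lower in 9 of 10 (median −0.39), with 1 at that level, and the median ran from −0.64 without female Corexit 9527 mouse 10 to −0.15 without female oil mouse 5. Thymus, cardiac and skeletal muscle markers had medians of −0.16, −0.18 and −0.18, which ran from −0.32 to −0.03, −0.36 to −0.08 and −0.41 to −0.07 as each mouse was left out. The share of such tissue in the differences was not tested.

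**Figure D5:**
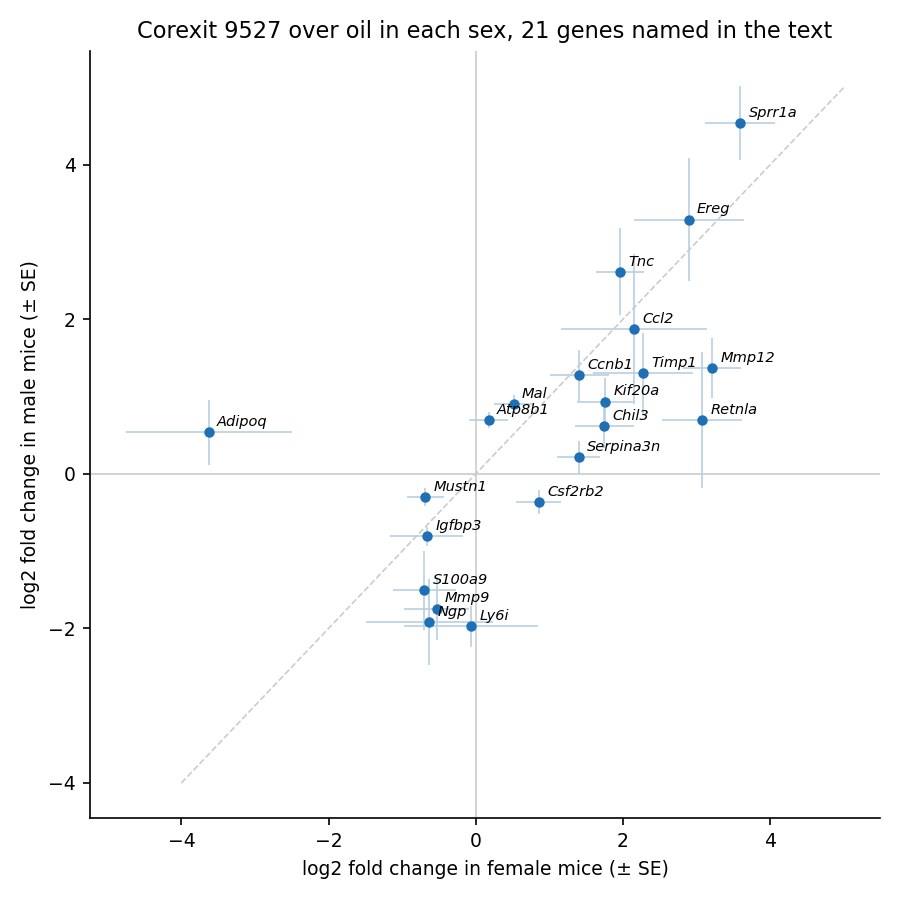
Log2 fold change of Corexit 9527 over oil in female mice (horizontal axis) and male mice (vertical axis) for 21 genes named in the text, each with its standard error as bars and the line of equal change dashed. Sprr1a is at 3.59 in females and 4.54 in males, Mmp12 and Retnla lie farther right than up, Ly6i and Mmp9 are farther below 0 in males, and Csf2rb2 and Adipoq have opposite signs.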

How the data were processed

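Estimated counts were used as the authors deposited them, not normalized, in a female table of 18120 and a male table of 18295 rows. According to the study's methods, Salmon quantified the reads against the GRCm38 transcripts and tximport combined them (versions are not given in the sources used here). The methods name transcript IDs as rows, whereas the deposited rows carry gene symbols, and they were taken as gene-level. The values were whole numbers, and no row summed below 10. Rows that share a name (4 a table) were left out, and those named by a date (24 a table) were kept but not named. Groups came from the sample labels, and the tables were joined on 17716 shared gene names. Of 18691 names in either table, 17787 (95.16%) matched exactly 1 GENCODE M21 gene, which gave positions. RefSeq supplied the promoter windows.

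The 12 libraries held 17654791 to 30011557 counts, and their depth limits genes near 1 CPM. The main test was the edgeR 4.0.16 quasi-likelihood F-test (R 4.3.3) after TMM normalization and filterByExpr, with sex as a covariate over both sexes, none within a sex, and a sex by treatment term for the interaction. Benjamini-Hochberg adjustment ran over all genes tested, with a threshold of 0.05. The SE is the absolute log2 fold change divided by the square root of F. CPM values use TMM library sizes over the 18 Corexit 9527, oil and saline mice, and mean log2 CPM a prior count of 2. Alternatives were DESeq2 1.42.0, limma 3.58.1 voom with sample quality weights, other scalings and filters, other samples and covariates, and each mouse left out. The scripts were tested on simulated data.

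The comparison, the 56 gene lists and the genes described were chosen with earlier results of these data known. Patterns for ribosomal and respiratory chain genes were narrowed once the tables were at hand. Genes were named by rule: in each direction over both sexes, those past the threshold that average 1 log2 CPM or more and do not overlap in either sex, filled to 8 by p; the 5 smallest p values in each sex and for the interaction; the 3 smallest in each list; and the 11 real-time PCR genes. A few genes that the rule names are not reported here but stayed in all tests and list counts. Other genes are said to be named after their values were seen. Unadjusted p values are given as counts and passed no correction.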

Additional observations from a re-analysis of the deposited data

Results flagged for a closer look

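Among 72 genes named, and the mitochondrial share, each of the 2 groups of 6 mice was checked for a mouse that stood apart by Dixon's ratio, and 13 of 146 groups held one, where chance flags about 1 in 20. The mitochondrial share was 38.4% in female Corexit 9527 mouse 11 and 22.6% in female oil mouse 6. The first of these mice also stood apart in Fen1 (1.12 CPM), Psca (0 CPM) and Igfbp3 (176 CPM). The second stood apart in Fen1 (1.53 CPM) and Il33 (233 CPM). Male Corexit 9527 mouse 12 stood low in Cep55 (5.25 CPM) and Kif15 (2.56 CPM) and high in Cyp1a1 (237 CPM). Male Corexit 9527 mouse 11 stood high in Tnc (390 CPM), female Corexit 9527 mouse 12 in Ndrg2 (65.8 CPM) and male oil mouse 4 in Sprr2a2 (3.43 CPM).

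In Csf2rb2 every Corexit 9527 mouse lay above every oil mouse in females and below in males, where the log2 fold change was −0.37. The interaction did not pass the adjusted threshold (lowest adjusted p over all genes = 1.00, edgeR).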

How the results depend on the processing

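Over both sexes the count of genes past the adjusted threshold was 1 with edgeR and also 1 with 2 other scalings, other filters on low counts, robust estimation, no term for sex and genes of either table. It was 87 with DESeq2, 47 with limma voom with sample quality weights, 15 with the mitochondrial share as a covariate, 5 with all 6 treatments in 1 fit (Sprr1a, Tnc, Mmp12, Cep55 and Kif20a) and 3 without the libraries of high mitochondrial share. DESeq2 without those libraries, an alternative chosen after seeing the data, found 295, of which 80 were among the 87 (92% of these, 27.1% of the 295). With each mouse left out the count ran from 1 to 2, with 2 without male Corexit 9527 mouse 11. In males it was 0, but 106 with DESeq2, 5 with all treatments in 1 fit, and 0 to 2 with each mouse left out (2 without oil mouse 5, 1 without Corexit 9527 mouse 12). In females it was 0, but 27 with DESeq2 and 52 with voom, and 0 to 0 with each mouse left out. For the interaction it was 0, but 3 with DESeq2 and 1 with voom, and 0 to 0 with each mouse left out. The cause of these differences was not tested.

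Of 923 values of named genes under other settings, 814 kept their direction and side of the threshold, 107 newly passed it and 2 changed sign, both with voom: Csf2rb2 at −0.094 and Ube3a at −0.070. With each mouse left out, 862 of 864 were unchanged in this sense, 1 newly passed (Tnc) and Cyp1a1, which ran from −0.69 to 1.23, changed sign without male Corexit 9527 mouse 12. No paired analysis was possible because the oil and Corexit 9527 mice carry different mouse numbers, and equal numbers in the sexes are separate mice.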
